A study of Mus musculus with 6 samples.

Results

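The endothelin, nitric oxide and angiotensin genes make and read the signals that set the width of hepatic vessels. The 9 genes described here are Edn1, Ece1, Ednra, Ednrb, Nos3, Gucy1a3, Ace, Agtr1a and Ptgis, taken by symbol from the count tables of all 6 libraries. They are among 16454 genes counted in both of the barcode sets described below. Liver non-parenchymal cells (LNPCs), the cells of the liver other than hepatocytes, were isolated from mice with nonalcoholic steatohepatitis (NASH) and sequenced on the 10x Genomics Chromium system. Every mouse was a male C57BL/6J, was 8 weeks old at purchase and ate a high-fat diet (HFD) for 24 weeks. By their titles, 3 libraries were controls and 3 were ginkgetin, and the controls were read as the vehicle-treated mice (DMSO) of the methods. By the methods, ginkgetin, a plant biflavone, was given intragastrically at 10 mg/kg/day during the last 8 weeks of the diet. No chow-fed mice were among the libraries, and the methods count as many samples per group as there are libraries without saying that a library is a single mouse, so every p-value measures the spread between these libraries.

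Endothelin-1, the product of Edn1, is cut from its precursor by the endothelin-converting enzyme encoded by Ece1. It contracts stellate cells through the receptor ETA (Ednra) and acts through ETB (Ednrb) on endothelial cells, where it stimulates nitric oxide release. Nitric oxide, made in endothelium by the synthase encoded by Nos3, relaxes neighbouring contractile cells through soluble guanylate cyclase, of which Gucy1a3 encodes a subunit. Angiotensin-converting enzyme (Ace) makes the angiotensin II that Agtr1a binds, and prostacyclin synthase (Ptgis) makes a vasodilator lipid. In the liver these branches meet at the sinusoid, where fenestrated endothelium lies against stellate cells.

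Replicates 1 and 2 of both groups shared a barcode set, and replicate 3 of both groups came from the other set, was read more deeply in median and carried newer gene symbols. The libraries held 13128697 to 61796882 unique molecular identifiers (UMIs) in all, with a median of 2397.5 to 8050 per barcode. Between 10 and 85 cell barcodes were shared by pairs of libraries of the same set, and at most 1 by pairs across the sets. The kept cells numbered 27544, of which 748 lay in clusters left unnamed. The others are in classes named from marker genes, with "-like" after the name, by thresholds settled after the data had been seen. The soluble guanylate cyclase subunit was listed as Gucy1a3 in replicates 1 and 2 and as Gucy1a1 in replicate 3, and these rows were read as 1 gene. Levels are given as CPM, the counts of a gene summed over a class in a library and scaled to 1000000 UMIs, and they compare 1 gene across classes, not different genes.

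The 9 genes fell into a few cell classes. Edn1, Ednrb, Ece1 and Nos3 were highest in vascular endothelial-like cells, Ednra, Gucy1a3 and Agtr1a in stellate-like cells, Ace in patrolling monocyte-like cells and Ptgis in mesothelial-like cells. Because the classes were built from the same cells, these levels are a description with no test.

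**Figure D1:**
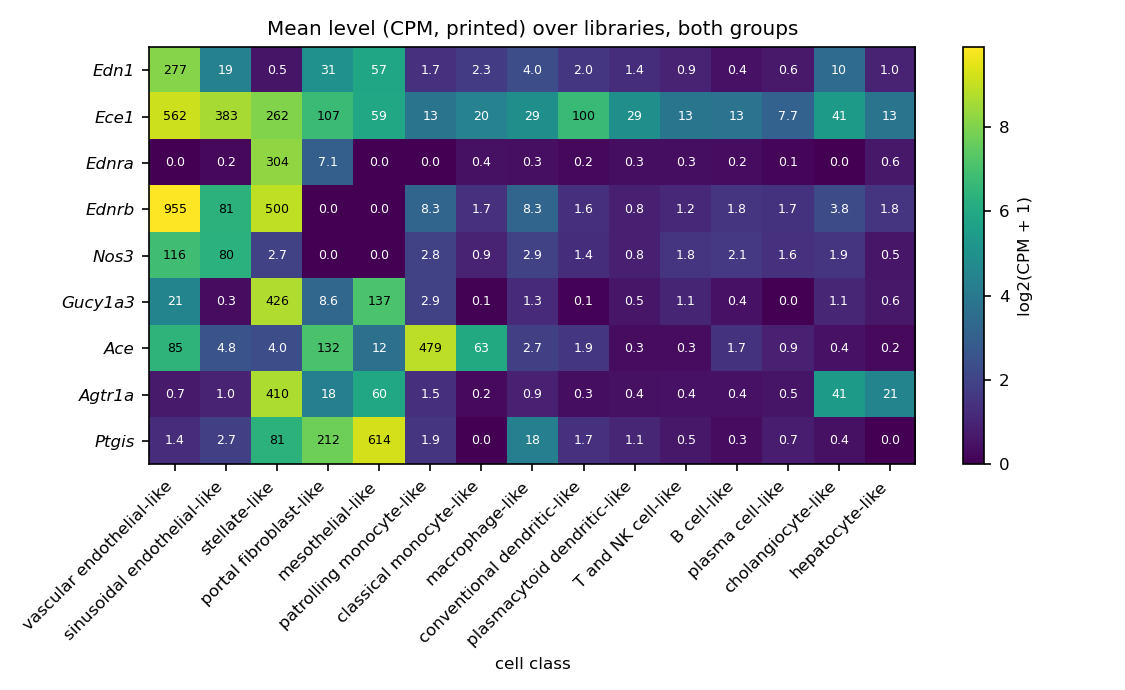
Mean CPM over libraries of the 9 genes (rows) in 15 classes (columns), on a colour scale defined by its bar. Ednra stands almost alone in stellate-like cells, whereas Ece1 is spread over endothelial-like, stellate-like and conventional dendritic-like cells.

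Edn1 lies on the plus strand at chr13:42301476-42307990 of GRCm38. Its level was 277 ± 143 CPM (SD, n = 6 libraries) in vascular endothelial-like cells and 19.2 ± 17.1 CPM in sinusoidal endothelial-like cells, with no overlap between the libraries of these classes. The genes whose levels followed Edn1 most closely over 75 sums of 1 class in 1 library were Flrt2 (Pearson r 0.871), Fbln2 (0.865) and Megf6 (0.851), and the sums of a library share its depth. The 250 bases before the Edn1 start (RefSeq, GRCm38.p6, plus strand, chr13:42301226-42301475) are shown because Edn1 is the member on which the endothelial results turn, and capitals mark CACCC, a short motif of Krüppel-like factors (KLF), read on the opposite strand.

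Edn1 promoter: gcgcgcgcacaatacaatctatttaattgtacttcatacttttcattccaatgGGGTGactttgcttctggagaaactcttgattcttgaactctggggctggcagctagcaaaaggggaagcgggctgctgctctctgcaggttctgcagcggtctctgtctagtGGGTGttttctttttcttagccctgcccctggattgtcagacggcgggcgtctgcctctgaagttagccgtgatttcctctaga

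The motif lies at bases -197 to -193 and -84 to -80 from the start. It is common, since 52% of 32851 promoters of this length held it on either strand. The AP-1 motif TGAGTCA had no match in this window and occurred in 4.46% of promoters. The core motif of hypoxia-inducible factors, ACGTG, also had no match, and 16.6% of promoters held it. Neither did the motif TTATC of GATA factors, found in 22.6%, or the box sequence TATAAA, found in 12.4%. A match is a description of letters and not of binding.

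Edn1 was lower in sinusoidal endothelial-like cells of ginkgetin-treated mice. The vehicle libraries held 31.5, 31.3 and 40.7 CPM, from 87, 38 and 105 counts, and the ginkgetin libraries 2.84, 6.18 and 2.76 CPM, from 8, 47 and 19 counts. Every ginkgetin library lay below every vehicle library, with means of 34.5 ± 5.41 and 3.93 ± 1.95 CPM (SD, n = 3 each). The log2 change was -3.22 ± 0.37 (SE), 9.33-fold lower, with an adjusted p of 0.0148 by edgeR's quasi-likelihood test over all 9942 genes tested. Of the 5 members tested there, Edn1 was the 1 that passed an adjusted p under 0.05 and a fold over 2, the rule for a call, beside 1.16% of all genes. The median log2 change of the 5 was -0.37, against -0.01 over all genes.

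The call for Edn1 in sinusoidal endothelial-like cells was lost when vehicle replicate 1 was left out (adjusted p 0.0908, edgeR), and also on leaving out vehicle replicate 2 (0.0582) or replicate 1 of the ginkgetin group (0.109), while the log2 change kept its sign. Over the alternatives the log2 change ran from -3.84 to -2.57 and the adjusted p from 1.97e-11 to 0.109. With each cell thinned to 1000 UMIs, the share of sinusoidal cells with an Edn1 UMI was 2.99%, 2.63% and 4.502% in the vehicle libraries and 0.165%, 0.607% and 0% in the ginkgetin libraries. Unthinned, the shares were 6.64%, 5.91% and 14.8% against 0.413%, 1.25% and 0.891%. T and NK cell-like cells, which should lack Edn1, held an Edn1 UMI in 0 to 0.271% of cells of the vehicle libraries and in 0%, 0.440% and 0.114% of the ginkgetin libraries after thinning. Median UMIs per cell were 2234.5 to 7550 in sinusoidal and 2536 to 5829 in T and NK cell-like cells. The vehicle shares of sinusoidal cells lay above every share in T and NK cell-like cells, and the ginkgetin shares lay near them.

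The fall in Edn1 appeared in all 3 ranges of the sinusoidal class. Sinusoidal cells of each library were put in order by pericentral minus periportal markers and cut into 3 equal ranges, which are ranges and not types, and 13.8% to 18.1% of a library's cells lay within 0.1 SD of a cut. Because the order was made within each library, a range need not be the same position in the vehicle and ginkgetin libraries. At the portal end Edn1 held 35.5, 28.3 and 40.8 CPM in the vehicle libraries and 2.27, 8.11 and 5.11 CPM in the ginkgetin libraries (log2 change -2.75 ± 0.38, edgeR adjusted p 0.0334). In the middle range the values were 31.8, 37.5 and 44.7 against 2.15, 6.11 and 2.13 CPM (-3.47 ± 0.43, edgeR adjusted p 0.0183). At the central end they were 27.7, 28.1 and 37.1 against 3.95, 4.47 and 1.26 CPM (-3.43 ± 0.45, edgeR adjusted p 0.00995). The groups did not overlap in any of the 3 ranges. Of all genes tested, 0.309% were called at the portal end, 0.77% in the middle and 1.64% at the central end. At the portal end the call was lost without any 1 of the 6 libraries (adjusted p 0.0722 to 0.232, edgeR), with the cell filter read as UMIs (0.0671) and with the symbols as deposited (0.0766). In the middle it was lost without any library other than ginkgetin replicate 3 (lost at 0.0521 to 0.117) and with the UMI filter (0.0734), and at the central end on leaving out replicate 1 of either group (vehicle 0.0786, ginkgetin 0.0648) or vehicle replicate 2 (0.0546).

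The vehicle and ginkgetin libraries filled different clusters of the sinusoidal class. In replicates 1 and 2, a cluster led by Kcnj8, Ccl2 and Ctla2a held 99.8% and 95.0% of the vehicle cells but 0.496% and 0.0337% of the ginkgetin cells, and Edn1 in it was 31.5 and 32.6 CPM in the vehicle libraries. The ginkgetin cells of those replicates lay mostly in clusters led by Tiam1, by Msr1 and Ntn4, and by hemoglobin genes, where Edn1 was 0 to 13.8 CPM. A further 26.6% and 5.77% of them lay in a cluster led by Gm42418, AY036118 and Lars2, transcripts that overlap ribosomal RNA, with Edn1 at 0 and 4.74 CPM, and this cluster held 0.875% of vehicle replicate 2 and no cell of vehicle replicate 1. In vehicle replicate 3, 47.2% of cells lay in a cluster led by Ccl21a and 49.7% in one led by Esm1, Hspa1a and Myc, with the stress genes Hspa1b and Atf3 also among its leading genes, and Edn1 was 36.3 and 42.2 CPM in them. No cell of ginkgetin replicate 3, the other library of that barcode set, lay in the cluster of stress genes. Summed sinusoidal markers were 7891, 7905 and 9016 CPM in the vehicle and 8669, 8506 and 11330 CPM in the ginkgetin libraries, with none of the 7 markers at 0. Summed vascular endothelial markers in the sinusoidal endothelial-like cells were 1211, 1524 and 1007 against 882, 1146 and 1139 CPM, and summed pericentral markers 7387, 5475 and 4722 against 1604, 1375 and 1679 CPM. Summed macrophage markers there were 400, 374 and 208 against 59.2, 165 and 74.2 CPM. The pericentral list included Fabp4, which was among the leading genes of the cluster led by Kcnj8. Clusters led by Rspo3, another gene of that list, went the other way. They held none, 0.219% and 0.943% of the sinusoidal cells in the vehicle and 7.19%, 9.64% and 23.5% in the ginkgetin libraries. The part of these differences in the Edn1 result was not tested.

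In vascular endothelial-like cells, which line the larger vessels, Edn1 did not pass the test. The vehicle libraries held 240, 309 and 90.7 CPM and the ginkgetin libraries 160, 474 and 386 CPM, and the groups overlapped. The log2 change was 0.64 ± 0.51 (edgeR adjusted p 0.957). None of the 6 members tested in this class was called (0.0379% of all genes), none had an unadjusted p under 0.05 by edgeR, and DESeq2 called 0. The effect of ginkgetin on Edn1 differed between the sinusoidal and vascular classes by -4.19 ± 0.35 on the log2 scale (edgeR, a fit over both classes with the library as a term and added after the data had been seen, adjusted p 2.77e-09), and 1.37% of all genes were called in that comparison. Without any 1 library this difference ran from -4.54 to -3.60 and stayed past the threshold. The vascular cells of replicates 1 and 2 also lay mostly in different clusters by group. One led by Mgp, Igfbp5 and Lrg1 held 99.7% and 92.3% of vehicle replicates 1 and 2, with Edn1 at 241 and 314 CPM, and one led by Atp13a3, Sdc1 and Edn1 held 83.6% and 100% of ginkgetin replicates 1 and 2, with Edn1 at 188 and 474 CPM. In vehicle replicate 3, 51.7% of cells lay in a cluster led by Igfbp5 and Adamts5 (Edn1 49.6 CPM) that held 1.74% of ginkgetin replicate 3. The other 48.3% of vehicle replicate 3 and 98.3% of ginkgetin replicate 3 shared a cluster led by Nrg1, Atp13a3 and Fbln2, in which Edn1 was 128 CPM in the vehicle and 391 CPM in the ginkgetin library. The part of these clusters in the difference between the classes was not tested. Over all endothelial-like cells, which mix both classes, Edn1 was 95.2, 88.3 and 51.9 against 14.1, 78.5 and 47.9 CPM (-0.92 ± 0.58, edgeR adjusted p 0.528).

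**Figure D2:**
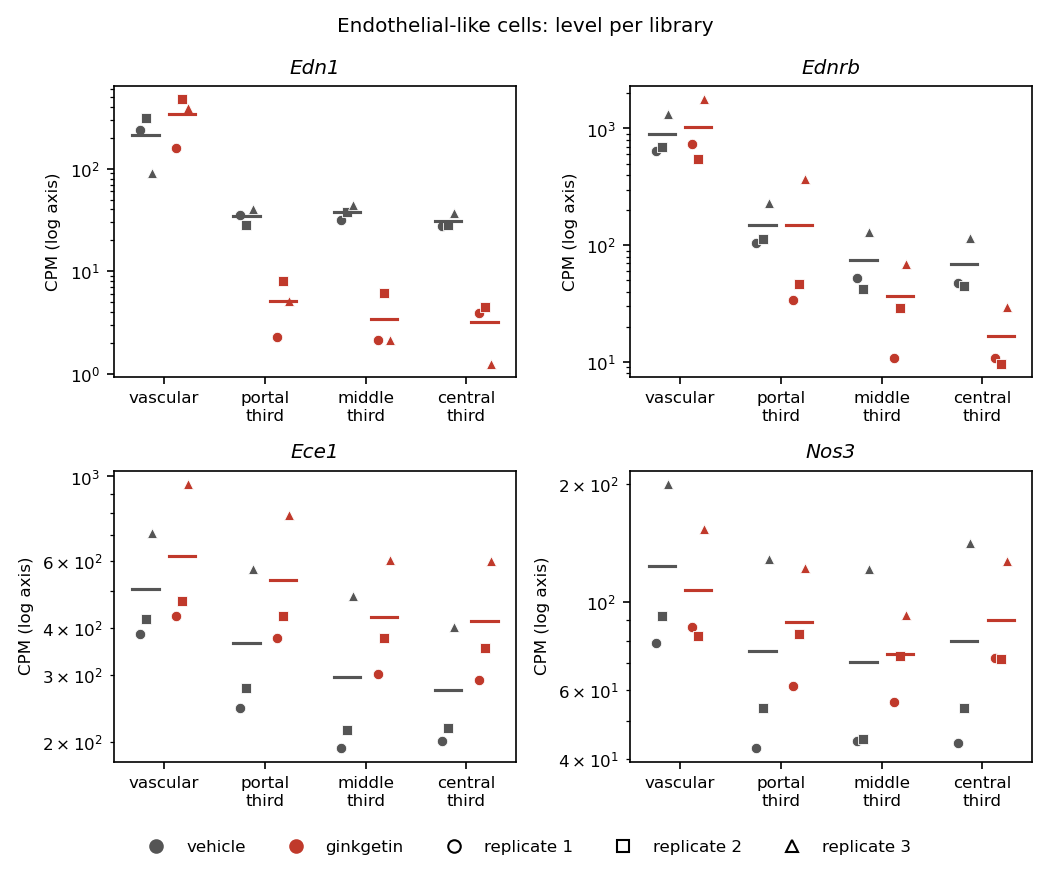
CPM of Edn1, Ednrb, Ece1 and Nos3 in each library (points) in vascular endothelial-like cells and in the 3 ranges of sinusoidal cells from portal to central, on a log axis, with vehicle and ginkgetin in separate colours. For Edn1 the ginkgetin libraries lie below the vehicle libraries in each of the 3 sinusoidal ranges but not in vascular cells.

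Ece1 (chr4:137862237-137965229, plus strand), the enzyme that releases mature endothelin-1, was expressed broadly. Its level was 386 to 956 CPM in vascular endothelial-like, 212 to 662 CPM in sinusoidal endothelial-like and 126 to 542 CPM in stellate-like cells, and these ranges overlapped. In sinusoidal cells the vehicle libraries held 212, 236 and 483 CPM and the ginkgetin libraries 322, 385 and 662 CPM (log2 change 0.40 ± 0.30, edgeR adjusted p 0.610). Within each replicate number the ginkgetin library was higher, but the groups overlapped.

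Conventional dendritic-like cells held 65.3, 65.6 and 76.2 CPM of Ece1 in the vehicle and 115, 106 and 173 CPM in the ginkgetin libraries, with no overlap (0.88 ± 0.20, edgeR adjusted p 0.131). T and NK cell-like cells held 7.27, 6.40 and 10.0 against 10.8, 25.3 and 19.6 CPM, also without overlap (1.21 ± 0.36, edgeR adjusted p 0.273). Neither passed the test. Summed endothelial markers moved with Ece1 in these classes. In T and NK cell-like cells they were 70.6 to 90.5 CPM in the vehicle and 206 to 892 CPM in the ginkgetin libraries, and in conventional dendritic-like cells 99.1 to 152 against 278 to 1021 CPM. Their part in the Ece1 values was not tested. Over the 7 classes of dendritic, lymphoid, cholangiocyte-like and hepatocyte-like cells, 6 tests of a member in a class were possible, 4 of Ece1 and 2 of Agtr1a. Of these 0 were called by edgeR or by DESeq2, and 3 had an unadjusted edgeR p under 0.05, all of them of Ece1. Of all genes, 0% were called in conventional dendritic-like and in B cell-like cells, 0.0647% in plasmacytoid dendritic-like, 0.01% in T and NK cell-like, 0.0169% in plasma cell-like, 0.87% in cholangiocyte-like and 0.135% in hepatocyte-like cells.

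Ednrb (chr14:103814625-103844402, minus strand), which encodes ETB, was at 548 to 1780 CPM in vascular endothelial-like cells, 296 to 934 CPM in stellate-like cells and 18.1 to 158 CPM in sinusoidal cells. The first and the second of these ranges overlapped, and the sinusoidal range lay below both. Plvap (r 0.908), Gm13889 (0.905) and Gja4 (0.898) had the levels most like it.

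In vascular cells Ednrb was 646, 688 and 1330 CPM in the vehicle and 734, 548 and 1780 CPM in the ginkgetin libraries, and the groups overlapped (0.18 ± 0.41, edgeR adjusted p 0.995). In sinusoidal cells the values were 66.2, 65.8 and 158 against 18.1, 27.7 and 150 CPM (-0.80 ± 0.68, edgeR adjusted p 0.658). The ginkgetin libraries of replicates 1 and 2 were far below their vehicle partners, and replicate 3, where 799 of 1028 counts lay in 110 of 898 cells, was not. With the replicate number as a block the sinusoidal change was -1.12 and passed (edgeR adjusted p 0.0395), and in all endothelial-like cells it was -1.13 with the block (edgeR adjusted p 0.0258) against -0.96 ± 0.48 without (0.421).

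At the central end of the sinusoid Ednrb held 47.1, 44.5 and 116 CPM in the vehicle and 10.9, 9.69 and 29.5 CPM in the ginkgetin libraries, with no overlap. It fell by 2.21 on the log2 scale (SE 0.43, edgeR adjusted p 0.0455). Edn1 and Ednrb were the 2 of 4 members called there, beside 1.64% of all genes. The call for Ednrb was lost without any 1 library other than ginkgetin replicate 3 (lost at adjusted p 0.0971 to 0.174, edgeR), with no normalization factor (0.115) and with the symbols as deposited (0.0846), whereas with the replicate block it was 9.9e-05. In the middle range the values were 51.9, 42.5 and 130 against 10.8, 28.9 and 69.5 CPM (-1.20 ± 0.52, edgeR adjusted p 0.399, or 0.00469 with the replicate block). At the portal end they were 104, 113 and 232 against 34.1, 46.2 and 369 CPM (-0.24, edgeR adjusted p 0.972), and with replicates 1 and 2 only the change there was -1.51 and passed (edgeR adjusted p 0.0163).

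Ginkgetin replicate 3 decided the contrast between the ends of the sinusoid. The effect on Ednrb differed between the central and portal ranges by -2.10 ± 0.27 (edgeR adjusted p 2.5e-06, added after the data had been seen, with 0.449% of all genes called), but without ginkgetin replicate 3 the difference was -1.05 (adjusted p 0.113) and with replicates 1 and 2 only it was -0.93 (adjusted p 0.262). Of 795 Ednrb counts at the portal end of that library, 697 lay in a cluster of 110 cells led by Ednrb, Insr and Efnb1, which held no cell of vehicle replicate 3. With these cells left out, Ednrb in ginkgetin replicate 3 was 72.6 CPM at the portal end and 38.1 CPM over the whole sinusoidal class. The cluster was picked after the values were seen and by its Ednrb level, so these 2 levels are a description with no test. Between the sinusoidal and vascular classes the effect on Ednrb differed by -1.09 ± 0.22 (edgeR adjusted p 0.00212), with a range of -1.55 to -0.83 when 1 library was left out. Without ginkgetin replicate 1 it was -0.83, under the fold of 2 that a call needs, and the call was lost.

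At the central end, summed pericentral markers were 9306, 7806 and 6290 CPM in the vehicle and 3252, 2549 and 3448 CPM in the ginkgetin libraries, and summed vascular markers 1138, 1455 and 838 against 593, 709 and 619 CPM. The clusters led by Rspo3 held no cell of vehicle replicate 1, and 1 and 3 cells of vehicle replicates 2 and 3. They held 87, 286 and 211 cells of the ginkgetin libraries, with Ednrb at 32.4, 15.5 and 36.2 CPM. The central range therefore need not hold the same kind of cell in both groups. The part of the markers and of these clusters in the Ednrb values was not tested.

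Ednra (chr8:77663031-77724464, minus strand), which encodes ETA, was a stellate-like gene, at 304 ± 160 CPM (SD, n = 5 libraries). Vehicle replicate 1 had 6 stellate-like cells and was left out of this class, which rested on 24 and 38 cells in the vehicle and 12, 65 and 36 cells in the ginkgetin libraries. Ednra was 162 and 119 CPM in the vehicle libraries, from 27 and 51 counts, and 436, 326 and 478 CPM in the ginkgetin libraries, from 23, 93 and 150 counts. The groups did not overlap. The log2 change of 1.51 ± 0.43 did not pass the test (edgeR adjusted p 0.237), and it passed with the replicate number as a block (edgeR adjusted p 0.0400), a fit that rests on 2 pairs because vehicle replicate 1 is absent, or the barcode set as a block (adjusted p 0.0256).

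Ednrb in stellate-like cells was 331 and 296 CPM in the vehicle and 455, 487 and 934 CPM in the ginkgetin libraries (0.96 ± 0.46, edgeR adjusted p 0.585). Ece1 was 126 and 182 against 189, 273 and 542 CPM (1.11 ± 0.48, edgeR adjusted p 0.523). These groups did not overlap, and neither gene passed. Agtr1a (chr13:30336441-30382867, plus strand), the angiotensin II receptor, was 385 and 235 against 511, 427 and 491 CPM (0.57 ± 0.43, edgeR adjusted p 0.758). Gucy1a3 (chr3:82092427-82145789, minus strand) was 367 and 472 against 341, 322 and 628 CPM and overlapped.

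None of the 6 members tested in stellate-like cells was called by edgeR (0.315% of all genes), 2 had an unadjusted p under 0.05 (Ednra and Ece1) and DESeq2 called 0. Their median log2 change was 0.76, against 0.03 over all genes. How many of all genes separated by group as Ednra, Ednrb, Ece1 and Agtr1a did was not computed, so that separation is a description. Summed stellate markers were 41023 and 31819 CPM in the vehicle and 38295, 33003 and 45486 CPM in the ginkgetin libraries, so the class held its markers in both groups. Summed portal fibroblast markers in stellate-like cells were 643 and 1483 against 303, 298 and 335 CPM. Summed endothelial markers there were 156 and 298 against 265, 991 and 720 CPM, and summed pericentral endothelial markers 439 and 296 against 1117, 883 and 1227 CPM. The part of these markers in the values of Ednrb, Ece1 and the other members was not tested.

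**Figure D3:**
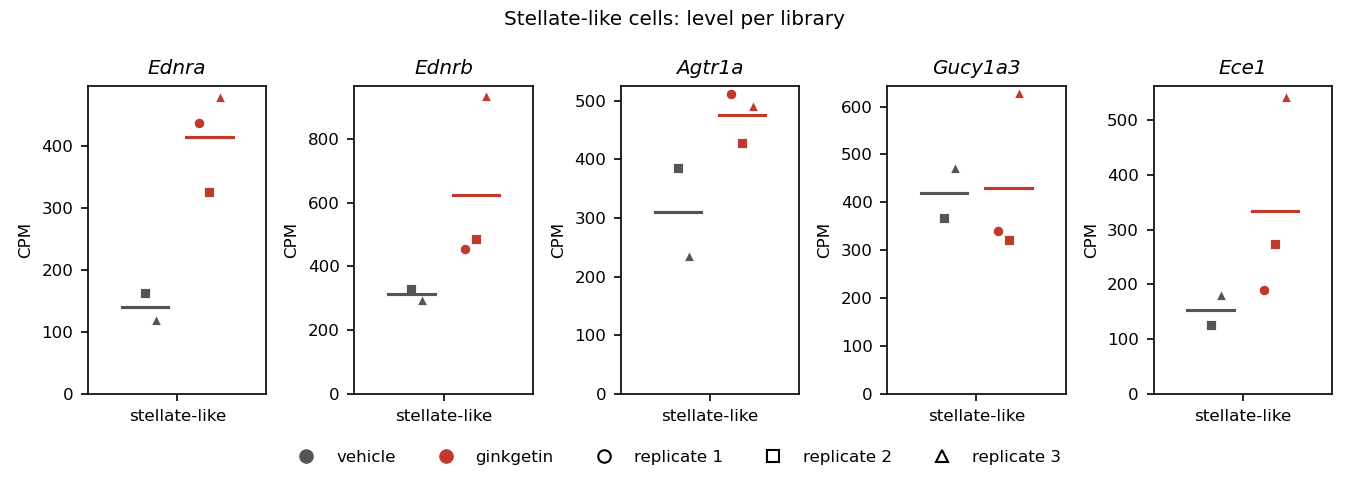
CPM of Ednra, Ednrb, Agtr1a, Gucy1a3 and Ece1 in stellate-like cells of each library (points), 2 vehicle and 3 ginkgetin libraries. The ginkgetin points lie above both vehicle points for Ednra, Ednrb, Agtr1a and Ece1 and overlap them for Gucy1a3, and no gene passed the test.

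Nos3 (chr5:24364810-24384474, plus strand), the endothelial nitric oxide synthase, was endothelial in every library, at 79.0 to 200 CPM in vascular and 43.8 to 131 CPM in sinusoidal cells, which overlapped. Mmrn2 (r 0.941), Robo4 (0.917) and Btnl9 (0.913) had the levels most like it. In sinusoidal cells Nos3 was 43.8, 51.0 and 131 CPM in the vehicle and 63.5, 75.9 and 114 CPM in the ginkgetin libraries (0.03 ± 0.33, edgeR adjusted p 0.986). In vascular cells it was 79.0, 92.4 and 200 against 86.7, 82.0 and 154 CPM. Replicate 3 was the highest of each group in both classes, and the groups overlapped.

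The soluble guanylate cyclase subunit Gucy1a3, the target of nitric oxide, was mainly a stellate-like gene (426 ± 127 CPM, SD, n = 5), and its partner subunit Gucy1b1 had the level most like it (r 0.905). In endothelial-like cells it was low, at 6.53, 13.7 and 1.19 CPM in the vehicle and 0.329, 1.89 and 2.75 CPM in the ginkgetin libraries (-2.09 ± 0.89, edgeR adjusted p 0.339). With replicates 1 and 2 only, which carry the older symbol, the change was -2.89 and passed (edgeR adjusted p 0.0358). The counts came mostly from vascular cells, where Gucy1a3 was 20.6, 66.9 and 3.94 against 4.56, 10.8 and 19.4 CPM. Vascular cells were 339 of 1243 and 91 of 548 endothelial-like cells in vehicle replicates 1 and 2 and 67 of 1277 and 404 of 3370 in ginkgetin replicates 1 and 2. None of the 6 members tested over all endothelial-like cells was called by edgeR without a block (1.24% of all genes), none had an unadjusted p under 0.05 and DESeq2 called 0.

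Ace (chr11:105967945-105989964, plus strand) is known as an enzyme of endothelium, and in these libraries it was highest in patrolling monocyte-like cells. The class as named held 177, 202 and 328 CPM in the vehicle libraries, from 188, 94 and 488 counts, and 496, 808 and 864 CPM in the ginkgetin libraries, from 34, 96 and 308 counts. These did not overlap (236 ± 80.7 against 722 ± 198 CPM, SD, n = 3 each), and the log2 change of 1.49 ± 0.32 passed the test (edgeR adjusted p 0.0381), beside 3.35% of all genes. The call did not hold once the clusters behind the name were looked at.

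Of the patrolling class, 61.9% and 53.5% of cells in vehicle replicates 1 and 2 lay in a cluster led by Plac8, Ly6i and Sirpb1c, against 6.90% and none of the cells in ginkgetin replicates 1 and 2. It had 3 patrolling markers, but its 10 leading genes held the classical monocyte marker Ccr2 and no patrolling marker, and Ace in it was 87.7 and 104 CPM in the vehicle libraries. Without it, a choice made after the data had been seen, Ace was 421, 418 and 328 CPM in the vehicle and 563, 808 and 864 CPM in the ginkgetin libraries. These did not overlap, but the log2 change was 0.92 and did not pass (edgeR adjusted p 0.217). In that fit 0% of all genes were called, and 389 of 2863 had an unadjusted edgeR p under 0.05. In vehicle replicate 3, 39.7% of the cells lay in a cluster led by Clec4e, Cxcl2 and Ptgs2 with 5 markers, where Ace was 102 CPM. With the clusters that held 7 or more of the 8 markers alone, Ace was 421, 418 and 528 against 563, 808 and 1114 CPM (0.83, edgeR adjusted p 0.230).

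The call in the class as named was also lost on leaving out any library but vehicle replicate 3, with adjusted p-values of 0.187 and 0.181 for vehicle replicates 1 and 2 and of 0.0872, 0.139 and 0.0773 for ginkgetin replicates 1, 2 and 3 (edgeR), and with the UMI filter (0.67, adjusted p 0.515). In classical monocyte-like cells Ace was 56.6, 64.1 and 55.5 against 49.1, 70.7 and 81.9 CPM and overlapped (0.19 ± 0.24, edgeR adjusted p 0.753, with 0.243% of all genes called). This class also held a cluster with a marker of another class and none of its own among its leading genes, and without it Ace was 30.2, 37.8 and 55.5 against 27.9, 70.7 and 81.9 CPM (0.58, edgeR adjusted p 0.424). Between the patrolling and classical classes as named, the effect on Ace differed by 1.28 ± 0.29 and was not called. The edgeR adjusted p was 0.0548, and 0.0019 to 0.278 without 1 library, in a fit added after the data had been seen. Over all monocyte-like cells Ace was 86.2, 95.8 and 137 against 141, 187 and 398 CPM (1.07 ± 0.31, edgeR adjusted p 0.127, or 0.0149 with the replicate block). There, 0 of 2 members were called by edgeR (0.988% of all genes) or DESeq2, and both had an unadjusted p under 0.05.

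In the patrolling class as named, summed patrolling markers were 1715, 1645 and 2632 CPM in the vehicle and 4610, 5358 and 6247 CPM in the ginkgetin libraries. Summed conventional dendritic markers were 6048, 4332 and 1721 against 1021, 311 and 1097 CPM, and summed endothelial markers 87.7, 108 and 53.1 against 336, 917 and 191 CPM. Vascular endothelial-like cells held 51.9 to 146 CPM of Ace and sinusoidal cells 1.65 to 9.70 CPM, so in every library the level in patrolling cells was the higher. The part of the markers in the Ace values was not tested.

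**Figure D4:**
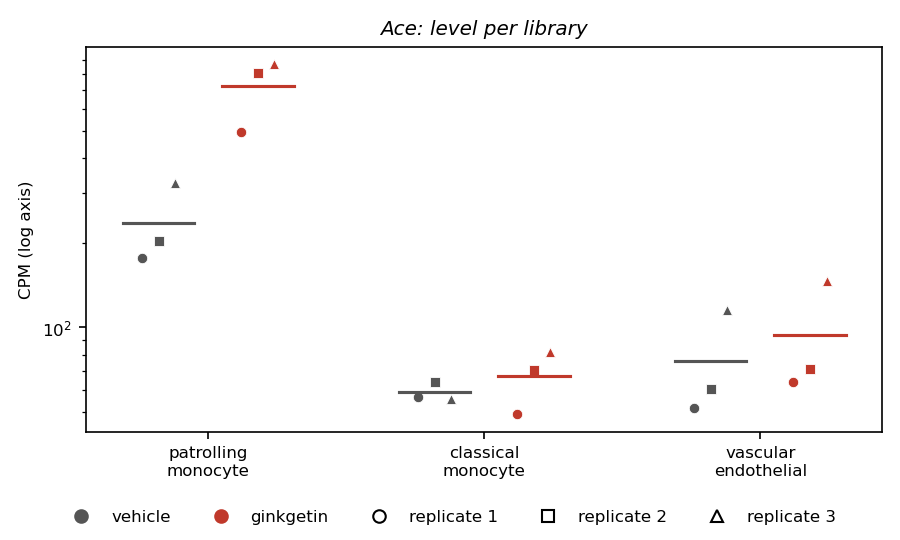
CPM of Ace in each library (points) in patrolling monocyte-like, classical monocyte-like and vascular endothelial-like cells, on a log axis. In the patrolling class as named the ginkgetin libraries, at 496 to 864 CPM, lie above the vehicle libraries, at 177 to 328 CPM, a difference that was not called without the cluster led by Plac8, and in the other classes the groups overlap.

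Outside stellate-like cells, Agtr1a was 54.7 and 65.4 CPM in the 2 libraries with enough mesothelial-like cells, from 12 counts in all. It was 0 to 29.5 CPM in portal fibroblast-like cells. In cholangiocyte-like cells, where it was tested, Agtr1a was 40.0, 33.4 and 21.4 CPM in the vehicle and 65.2, 37.9 and 47.2 CPM in the ginkgetin libraries (0.62 ± 0.31, edgeR adjusted p 0.392). It was also read in hepatocyte-like cells, a class that the isolation was meant to leave out. Sucnr1 (r 0.922), Nr1h4 (0.906) and Mylk (0.897) had the levels most like Agtr1a.

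Ptgis (chr2:167191805-167240604, minus strand) was highest in mesothelial-like cells, at 508 CPM in vehicle replicate 1 and 719 CPM in ginkgetin replicate 3, the 2 libraries with enough of these cells. It was next in portal fibroblast-like cells (184 and 231 CPM in vehicle replicates 2 and 3, and 219 CPM in ginkgetin replicate 3) and then in stellate-like cells (84.1 and 114 against 56.8, 59.6 and 92.4 CPM). In macrophage-like cells as named Ptgis was 1.36, 10.1 and 0.790 CPM in the vehicle and 17.1, 22.1 and 57.7 CPM in the ginkgetin libraries, without overlap. The log2 change of 2.72 ± 0.91 did not pass (edgeR adjusted p 0.0709), while with the replicate block it was 3.19 (adjusted p 0.0104) and by DESeq2 2.44 (adjusted p 0.0221). Of the 68 Ptgis counts of vehicle replicate 2, 57 came from 6 cells of a cluster led by Retnla, Saa3 and Prg4. It had 5 macrophage markers (C1qa, C1qb, C1qc, Adgre1 and Cd68), but its 10 leading genes held the classical monocyte marker Fn1 and no macrophage marker. Without this cluster of 13 cells, a choice made after the data had been seen, Ptgis was 0.984, 1.65 and 0.790 against 17.1, 20.4 and 57.7 CPM (4.49, edgeR adjusted p 0.00286, with 13.5% of all genes called). Most ginkgetin counts lay in clusters led by Marco, C6 and Fcna (67.9 CPM in replicate 3) and by Cxcl13, Cd163 and C6 (27.2 and 32.6 CPM in replicates 1 and 2), which held 11 and 2 vehicle cells.

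Macrophage-like cells also gave a call for Nos3, at very low levels. The vehicle libraries held 0.680, 0.592 and 0.526 CPM, from 9, 4 and 10 counts, and the ginkgetin libraries 2.86, 9.10 and 3.69 CPM, from 1, 7 and 8 counts. The groups did not overlap, and the log2 change was 2.59 ± 0.57 (edgeR adjusted p 0.0193). It was 1.94 (adjusted p 0.0801) without ginkgetin replicate 2. Without any 1 vehicle library and with the UMI filter, Nos3 was under the filter on low counts and was not tested. Nos3 was the 1 of 5 members called in macrophage-like cells, where 13.1% of all genes were called, and DESeq2 called 2. With the replicate block 3 members were called, Nos3, Ptgis and Ece1 (1.09, edgeR adjusted p 0.0415, against 0.0871 without it). The 13.1% is that of the fit without the block.

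B cell-like cells, which should lack Nos3, held 0, 0 and 1.95 against 1.46, 5.83 and 3.34 CPM of it. After thinning, the mean share of cells with a Nos3 UMI went from 0.0954% to 0.831% in macrophage-like and from 0% to 0.302% in B cell-like cells. Median UMIs per macrophage-like cell were 7633.5 to 16127 in the vehicle and 2072.5 to 2389 in the ginkgetin libraries. Summed endothelial markers in macrophage-like cells were 219, 192 and 184 CPM in the vehicle and 965, 1812 and 1068 CPM in the ginkgetin libraries, with none of the 10 markers at 0, and their part in the Nos3 and Ece1 values was not tested. The macrophage-like cells of the groups also lay mostly in different clusters: one led by Fabp7, Folr2 and Wfdc17 held 59.5% and 62.8% of vehicle replicates 1 and 2, and one led by Cxcl13, Cd163 and C6 held 79.2% and 77.1% of ginkgetin replicates 1 and 2.

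Summed over all kept cells of a library, Ece1 was 46.0, 39.1 and 69.5 CPM in the vehicle and 108, 189 and 285 CPM in the ginkgetin libraries (1.55 ± 0.29, edgeR adjusted p 0.0110). Nos3 was 6.56, 6.11 and 12.98 against 18.3, 33.5 and 44.3 CPM (1.56 ± 0.33, edgeR adjusted p 0.0164). These were the 2 of 9 members called, beside 14.1% of all genes, and DESeq2 and the replicate block each called 3, with Ednra as the other (1.68 ± 0.59, edgeR adjusted p 0.0849 without the block). In such sums more cells of a type and more RNA per cell cannot be told apart. Endothelial-like cells were 1243, 548 and 408 of 6017, 3336 and 4137 cells in the vehicle and 1277, 3370 and 1138 of 3493, 6918 and 3643 cells in the ginkgetin libraries. The Ece1 call was lost on leaving out replicate 2 of either group (adjusted p 0.0526 for vehicle, 0.0520 for ginkgetin) or vehicle replicate 1 (0.0507), and the Nos3 call on leaving out the same libraries (0.0667, 0.0698 and 0.0643, edgeR). With the UMI filter both were lost (edgeR adjusted p 0.371 for Ece1 and 0.465 for Nos3).

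Beside the members, 49 other genes of the same branches were counted. In endothelial-like cells 1 of 34 tested rose and none fell (3 were called with the replicate block), beside 1.24% of all genes. It was Tbxa2r, the receptor for the vasoconstrictor thromboxane A2, and it carried the change in sinusoidal cells, at 20.6, 16.5 and 31.8 CPM in the vehicle and 57.1, 80.9 and 112 CPM in the ginkgetin libraries (1.67 ± 0.23, edgeR adjusted p 0.0239). The groups did not overlap. Without ginkgetin replicate 3 or any other 1 library except vehicle replicate 3, this sinusoidal call was lost (adjusted p 0.0521 to 0.131, edgeR). The call over all endothelial-like cells was lost without any 1 library (adjusted p 0.0529 to 0.137, edgeR) and with no normalization factor. Of 24 tested at the central end of the sinusoid, where 1.64% of all genes were called, 2 rose, Tbxa2r (2.07, a call lost without vehicle replicate 1 or 2 or ginkgetin replicate 2, edgeR adjusted p 0.0978, 0.0608 and 0.0567) and Enpep, the aminopeptidase that degrades angiotensin II, which was 51.2, 67.9 and 71.0 against 147, 154 and 228 CPM (1.30 ± 0.21, edgeR adjusted p 0.0230, and 0.0542 to 0.136 with any 1 library left out). The median log2 change of the list was 0.01 in endothelial-like cells, as near 0 as that of all genes (-0.01).

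In endothelial-like cells, up to 2 genes of each branch were picked for description by their CPM, which is not scaled to length and is no ranking of expression between genes. None of them passed. They were Klf2 and Klf4, transcription factors that respond to flow (1333 and 340 CPM, mean over 6 libraries), the natriuretic peptide receptor Npr1 (291 CPM), the cyclic nucleotide phosphodiesterase Pde2a (284 CPM), Hpgd, which degrades prostaglandins (239 CPM), the cyclooxygenase Ptgs1 (154 CPM), Enpep (104 CPM), Atp6ap2, the prorenin receptor (84.9 CPM), Ece2 (4.27 CPM) and Mme, or neprilysin (0.134 CPM). Klf2 was 926, 951 and 2014 CPM in the vehicle and 1513, 915 and 1679 CPM in the ginkgetin libraries and overlapped (-0.02, edgeR adjusted p 0.989). Npr1 was 172, 173 and 279 against 294, 293 and 534 CPM, without overlap, and did not pass (0.69, edgeR adjusted p 0.227). Pde2a was 20.6 and 32.9 CPM in replicate 3 of the groups and 267 to 550 CPM in the others.

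In stellate-like cells none of the 19 genes of the list tested passed. Those picked for description in the same way were Gucy1b1, the beta subunit of soluble guanylate cyclase (348 CPM), Klf2 (271 CPM), Vasp, an actin regulator phosphorylated by the cyclic GMP kinase (120 CPM), Agtrap, a protein that binds the angiotensin II receptor (85.0 CPM), Spr (80.4 CPM), Atp6ap2 (59.5 CPM), Hpgd (21.3 CPM), Tbxa2r (19.96 CPM), Ece2 (5.51 CPM) and Mme at 0. Gucy1b1 was 240 and 235 CPM in the vehicle and 455, 336 and 472 CPM in the ginkgetin libraries.

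In macrophage-like cells 5 of 29 genes of the list rose and 3 fell, 8 calls in all (13.1% of all genes were called), against 5 without vehicle replicate 1, 4 without vehicle replicate 2 and 3 without ginkgetin replicate 3. The genes that rose were Npr1 (log2 change 2.57), Ddah2, which clears an inhibitor of nitric oxide synthases (2.30), Klf2 (1.62), Klf4 (1.43) and Agtrap (1.06). Those that fell were the aminopeptidase Anpep (-3.54) and 2 enzymes that remake arginine, Ass1 (-2.90) and Asl (-1.37). Klf2 and Asl kept the call without any 1 library, and each other gene lost it at least once. The highest edgeR adjusted p was then 0.0980 for Npr1, 0.102 for Ddah2 and 0.0925 for Klf4. It was 0.0578 for Agtrap, 0.0554 for Anpep and 0.204 for Ass1. Klf2 was 167, 199 and 238 CPM in the vehicle and 703, 726 and 1140 CPM in the ginkgetin libraries, with no overlap. The endothelial markers given above moved with Npr1, Klf2 and Klf4, and their part was not tested. Over whole libraries 6 of 44 rose (Enpep, Npr1, Npr2, Tbxa2r, Pde5a and Ddah2, log2 changes of 1.19 to 2.64) and 7 fell (Tbxas1, Ptgs2, Pla2g4a, Anpep, Rnpep, Asl and Atp6ap2, -2.63 to -1.01), beside 14.1% of all genes, and with the UMI filter 0 of them were called. In the other classes tested no gene of the list was called.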

How the data were processed

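The authors isolated LNPCs and deposited, for each library, a table of raw UMI counts, with genes against barcodes and no scaling. The labels name 10x Genomics, although their extraction text describes a bulk RNA kit. The submitters' processing notes name the builds GRCm38 and mm10, and the aligner is not given in the sources used here. The methods keep cells with 250 to 5000 UMIs and under 5% mitochondrial reads. Here these limits were put on genes detected instead, which keeps more cells, and the filter as stated, on UMIs, was an alternative (the UMI filter). Older and newer symbols of 1 gene were merged (304 pairs), and 16454 genes counted in both barcode sets were kept, with 97.4% to 99.5% of UMIs.

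Cells were clustered in scanpy 1.11.5 (2000 variable genes, 30 components, 15 neighbours, Leiden resolution 1) without the members and the list of related genes. A cluster was named with 3 or more markers of its class, each in 25% of cells and at 2 times the level elsewhere. Monocyte and endothelial clusters were divided again within each barcode set. Scrublet called 0.0286% to 0.247% of cells, too few to be relied on, so an alternative dropped the top 5% of cells by score. The members, the gene lists and several tests were chosen with earlier results of these data known.

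Counts were summed per library and class (10 or more cells, 2 or more libraries a group) and tested by the quasi-likelihood method of edgeR 4.0.16 (R 4.3.3), after filterByExpr and TMM scaling, with no covariate. A call is a Benjamini-Hochberg adjusted p under 0.05 over all genes of the class and a fold over 2. Members with an unadjusted p under 0.05, or with groups that did not overlap, are given without the share of all genes and as a description. DESeq2 1.42.0 and the fits listed in the closing part were alternatives. One of them, added after the data had been seen, leaves out clusters with more markers of another class than of their own among their 10 leading genes. Positions are from GENCODE on GRCm38. The named genes are the members, any gene of the list called in a class, the 2 genes of highest CPM in each branch in endothelial-like and stellate-like cells, and the 3 genes most correlated with a member over 75 sums. Of 61 genes written in the list, 2 are not reported here and 49 of the others were counted in both sets. On simulated counts of sinusoidal cells (9942 genes) the test found 35.4% of genes changed 2-fold and 95.9% of those changed 4-fold. In stellate-like cells (5073 genes) these were 11.1% and 59.1%, and in patrolling monocyte-like cells (4658 genes) 9.09% and 80%. False calls were 8.62% of the calls in the first, 3.48% in the second and 6.67% in the third of these classes. The simulated counts held no difference between barcode sets, unlike these libraries. The rule of a fold over 2 itself limits how many 2-fold changes can be called. Same-numbered libraries of the groups deviated together (r 0.468, 0.291 and 0.682 over whole libraries), each over the 0.1 set for taking the numbers as pairs. In sinusoidal cells these were 0.425, 0.321 and 0.754, but vehicle replicate 2 correlated more with ginkgetin replicate 1 (0.368), and in all endothelial-like cells likewise (0.371 against 0.315), so there the replicate number and the barcode set, which replicates 1 and 2 share, cannot be told apart. Depth and shares of cells differed between libraries of the same group and were not tested.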

Additional observations from a re-analysis of the deposited data

Results flagged for a closer look

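The effect of ginkgetin differed between classes for Edn1, by -4.19 on the log2 scale in sinusoidal minus vascular endothelial-like cells, and for Ednrb, by -1.09 in the same comparison (-0.83 without ginkgetin replicate 1, under the fold of 2 that a call needs). For Ednrb it also differed by -2.10 between the central and portal ranges of sinusoidal cells, a difference that ginkgetin replicate 3 decided (-1.05 without it, edgeR adjusted p 0.113). Each was picked out because the difference itself passed an edgeR fit over both classes with the library as a term, with adjusted p-values of 2.77e-09, 0.00212 and 2.5e-06.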

How the results depend on the processing

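Of the 1133 alternative values computed for single genes, 15 had the other direction. The 1133 include levels in CPM, which have no direction. These 15 were Ednrb in vascular cells (-0.081 with replicates 1 and 2 only, -0.039 with the members kept in clustering, -0.32 to 0.44 without 1 library), Ednrb at the portal end (0.0047 with no TMM factor, 0.19 when clustered within each barcode set, -1.87 to 0.18 without 1 library), Nos3 in sinusoidal cells (-0.022 with no filter on barcodes, -0.0056 when clustered within each barcode set, -0.044 with the members kept in clustering, -0.20 to 0.52 without 1 library) and, over whole libraries with the UMI filter, Pla2g4a (0.69). Of 9 members, the number called in endothelial-like cells went from 0 to 1 with the replicate block, the barcode-set block or clustering within each set, and to 2 with replicates 1 and 2 only. In sinusoidal cells it went from 1 to 2 with either block, with replicates 1 and 2 only and with the UMI filter, and was 0 to 1 without 1 library. In stellate-like cells it went from 0 to 1 with either block, and in all monocyte-like cells from 0 to 1 with either block or no filter on barcodes. In patrolling monocyte-like cells it fell from 1 to 0 with the UMI filter, no filter on barcodes, clustering within each set, the symbols as deposited, clusters of 7 or more markers only or the clusters led by genes of another class left out, and was 0 to 1 without 1 library. In macrophage-like cells it was 2 by DESeq2 or with the clusters led by genes of another class left out, 3 with no TMM factor, no filter on low counts, either block or no filter on barcodes, and 0 to 2 without 1 library. In whole-library sums it was 2, 3 by DESeq2 or with the replicate block, 0 with the UMI filter, 4 without the cells of highest doublet scores and 0 to 2 without 1 library. Of the related genes, 1 was called in endothelial-like cells, 2 by DESeq2, with no filter on low counts, with replicates 1 and 2 only or with no filter on barcodes, 3 with either block, and 0 with no TMM factor or without any 1 library. In macrophage-like cells 8 were called, and 3 to 9 without 1 library. In whole libraries 13 were called, 18 by DESeq2, 19 with the replicate block, 20 with the barcode-set block and 0 with the UMI filter. The replicate block changed no other call reported here than those given beside the results, except that it ended that of Atp6ap2 over whole libraries (-0.9997). The causes were not tested. With no TMM factor the median log2 change of all genes was 0.52 in macrophage-like, 0.36 in whole-library and 0.16 in sinusoidal sums, against 0.03, 0.04 and -0.01. Stellate-like values could not be computed with the UMI filter or without the cells of highest doublet scores, since too few libraries held 10 cells. Few counts limit Nos3 in macrophage-like cells (1 count in ginkgetin replicate 1) and Edn1 in sinusoidal cells (8 counts in that library).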

Other observations

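Other genes had levels across classes close to those of members, over 75 sums of 1 class in 1 library and 7273 genes compared. Among the genes closest to Ednra were Daam2 (r 0.959) and Adra2b (0.958). Ptgis was closest to Lpar1 (0.896), Col14a1 (0.847) and Hand2 (0.826), Ece1 to Efnb1 (0.866), B230219D22Rik (0.863) and Il6st (0.862), and Ace to Nxpe4 (0.832), Pi16 (0.797) and Gda (0.795). Gucy1a3 was next closest, after Gucy1b1, to Aard (0.843) and Tagln (0.828). The sums share libraries, and the values are a description.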
